A study of Mus musculus with 6 samples.

Results

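The Rab genes, which encode the small GTPases of vesicle traffic, were compared between whole mouse bone marrow and the marrow cells in which a renin reporter was lit. Members were all genes whose platform symbol is Rab, a number and at most 1 letter from a to d, read by a probe set that carries a single symbol. These were 59 of the 18193 named genes measured, with 132 probe sets among them, and each gene was read by its brightest probe set on average over the 6 arrays. They carry 42 different numbers, and 14 numbers are shared by 2 or more genes. This makes 31 genes with a paralogue of the same number and 28 without one. Paralogues under different numbers were not paired.

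Both groups came from adult hemizygous Tg(Ren1-GFP)2Kwg mice of both sexes, 3 to 6 months old, in which the renin promoter drives green fluorescent protein (GFP). On each of 3 days femur marrow of 4 to 5 animals was pooled, and each pool gave an ungated sample (presort, n = 3) and a sample of GFP-positive cells (sorted, n = 3). Replicate numbers 1, 2 and 3 therefore stand for pools. Gating by scatter left out debris and erythrocytes and kept single cells, and the lower GFP limit let in 0.1% of cells of an animal without the transgene; presort samples passed no gate. Renin itself was not analysed here and gives no check of the gates.

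Rab proteins are small GTPases that mark the membranes of the secretory and endocytic pathways. Bound to GTP, each recruits effectors (tethers, motors and adaptors) that move, dock or fuse a class of vesicles. Guanine nucleotide exchange factors (GEFs) switch them on, GTPase-activating proteins (GAPs) switch them off, and GDP dissociation inhibitors (GDIs) carry the prenylated, inactive protein through the cytosol. Blood cells use general Rab proteins such as Rab1, Rab5, Rab7 and Rab11 for housekeeping traffic, and others, such as Rab27a and Rab3d, for granules that are released on a signal.

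Values are log2 of the deposited array intensities, a change is the sorted minus the presort mean on that scale, and a gene is said to have risen or fallen where limma's Benjamini-Hochberg adjusted p over all 18193 genes was under 0.05. By that rule 2629 genes rose and 3296 fell after the sort, 14.5% and 18.1% of all genes and 32.6% together. Whole marker lists moved with the sort. Of the B cell markers 8 of 9 rose, with a list mean of 10.01 to 10.97 on the presort arrays and 12.42 to 12.62 on the sorted ones. All 10 neutrophil markers fell (13.69 to 13.80 against 11.26 to 12.08), as did 9 of 10 monocyte and macrophage markers (10.37 to 11.04 against 7.47 to 8.75), all 7 mast cell and basophil markers (9.45 to 9.73 against 6.51 to 7.12) and all 9 erythroid markers (12.73 to 12.78 against 9.96 to 10.68). Platelet markers (4 of 8 fell) were at 7.23, 8.75 and 8.31 in presort replicates 1, 2 and 3. In the sorted replicates they were at 6.43, 7.63 and 6.57, lower in each pool. T and NK cell markers (3 of 9 fell) ran from 7.50 to 7.75 before the sort and from 6.36 to 7.25 after it. The 2 brightest markers of each list stood at 2.57 (Cd79b) and 2.27 (Ms4a1) for B cells, -0.69 (Ngp) and -0.81 (S100a8) for neutrophils, and -2.57 (Hdc) and -3.38 (Mcpt8) for mast cells and basophils. They stood at -2.79 (Csf1r) and 0.35 (Ly86, not called) for monocytes and macrophages and at -1.55 (Car2) and -0.60 (Tfrc) for erythroid cells. For platelets they were -1.30 (Itga2b) and -1.69 (Pf4, not called), and for T and NK cells -2.99 (Nkg7) and -1.29 (Gzma, not called). With the replicate number as a block in the limma fit, Pf4 (adjusted p = 0.00678) and Gzma (0.0451) passed. Ngp and S100a8 lie at percentiles 100 and 99.98 of genes by mean brightness, so near the top of the scale that the size of their falls is not settled. The median over the 10 neutrophil markers was -2.02. In bulk samples fewer cells of a type and less RNA per cell cannot be told apart. RNA quality moved too: the log2 gap between 3' and 5' beta-actin signal was 0.81 to 1.11 before the sort and 3.17, 1.54 and 1.43 in sorted replicates 1, 2 and 3. The part of cell makeup and RNA quality in the Rab changes was not tested.

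The falls in sorted cells took in 4 of 9 Rabs of regulated secretion, all 4 of lysosome-related organelles and phagosomes, 3 of 6 of early endosomes, 2 of 7 of exocytosis and the cilium, and 1 each of late endosomes, recycling and the ER and Golgi. The rises were 3 of 15 in the ER and Golgi group and 1 each in 4 other groups. Each gene was placed in 1 group only, so these counts rest on the placing. Of the 59 members 16 fell and 7 rose, 27.1% and 11.9% against the 18.1% and 14.5% of all genes. At least 2-fold were 12 of the falls and 3 of the rises, where all genes gave 10.3% and 5.8%. The changes ran from -2.96 for Rab3d to 1.55 for Rab2b, and the median was -0.17, against -0.00 for all genes. The groups did not overlap for 34 members (23 sorted below, 11 sorted above), where 23.6% of all genes lay below and 20.9% above. The shares of all genes include many dim ones. Without the dimmest 33.3% of genes 50 Rab genes were left, of which 15 fell and 7 rose (30% and 14%). Of all genes then left 25.7% fell and 21.2% rose. The shares of falls among Rab genes and all genes were thus closer than before this removal. With a common median set for all arrays (median centring), the median of all genes moved to 0.23, and 13 Rab genes were higher and 14 lower (22.03% and 23.73%), against 28.4% and 14.2% of all genes. The sign of an uncalled change smaller than this shift is not settled. The median over the members was -0.18, -0.13 and -0.09 in pools 1, 2 and 3.

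**Figure D1:**
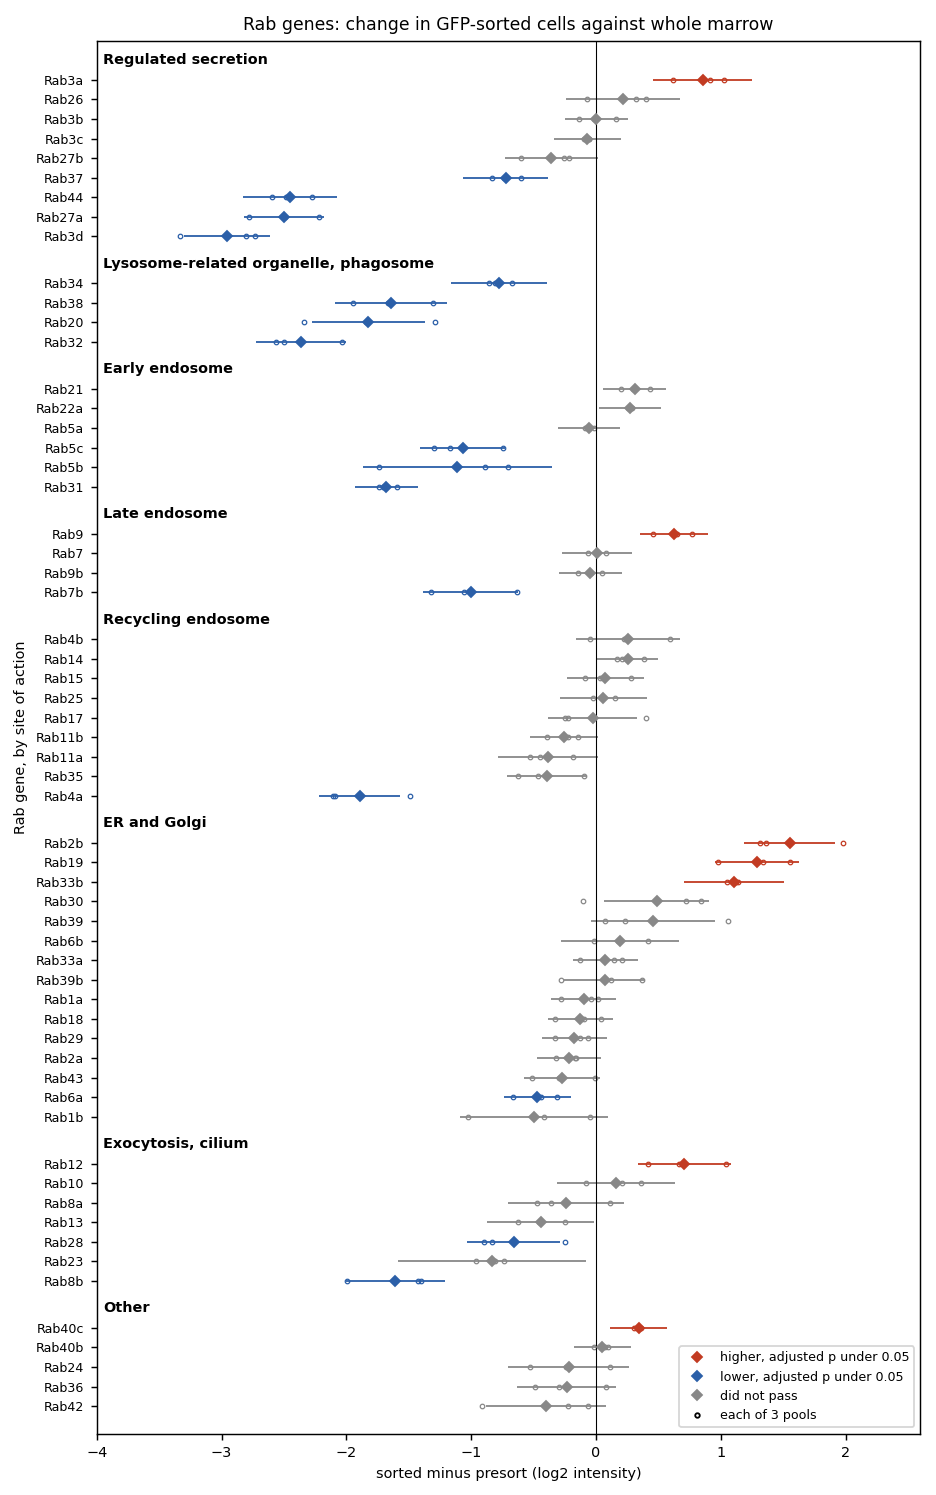
Change of each of the 59 Rab genes in sorted against presort samples (x axis, log2 intensity), grouped by where the protein is known to act. Diamonds are the means with 95% intervals from limma, open circles the 3 pools. The granule and lysosome-related groups hold the falls of Rab3d (-2.96), Rab27a (-2.50), Rab44 (-2.45) and Rab32 (-2.37), and the ER and Golgi group holds the rises of Rab2b (1.55), Rab19 (1.29) and Rab33b (1.11).

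Among the 9 Rabs of regulated secretion 4 fell and 1 rose (44.4% and 11.1%, against 18.1% and 14.5% of all genes). Rab3d, which acts on secretory granules of exocrine and mast cells, stood at 10.80, 10.69 and 10.70 in presort replicates 1, 2 and 3 and at 7.47, 7.95 and 7.90 in the sorted ones. Every sorted value lay more than the whole spread of either group below presort. This was a fall of 2.96 ± 0.15 on the log2 scale (SE, 7.76-fold, limma adjusted p = 1.65e-05). Rab27a, which docks cytotoxic granules and melanosomes at the plasma membrane, read 10.72, 10.58 and 11.01 before the sort and 8.22, 8.36 and 8.23 after it. The groups were far apart, with a change of -2.50 ± 0.14 (SE, 5.65-fold, adjusted p = 1.94e-05), and the mean of its 4 probe sets gave -0.95. Rab44, a large Rab with an added EF-hand domain, was at 8.70, 8.99 and 9.07 in presort and at 6.21, 6.72 and 6.47 in sorted samples. It too showed no overlap and fell by 2.45 ± 0.16 (SE, 5.47-fold, adjusted p = 2.82e-05). Rab37, another Rab of granule release, fell less, by 0.72 ± 0.15 (SE). Its 2 probe sets stood at -0.72 and -1.77, and its call was lost under 2 of 18 alternatives (without pool 2 and with the actin gap as covariate; adjusted p 8.75e-05 to 0.0628 over all 18).

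The other secretory Rabs went differently. Rab3a, the synaptic vesicle form, read 9.17, 9.40 and 9.30 in presort and 9.79, 10.43 and 10.22 in sorted samples. All sorted values were higher, and the rise of 0.85 ± 0.17 (SE, 1.81-fold, adjusted p = 0.00606) was 1.37 at its other probe set; the call was lost without pool 3 (adjusted p 0.000200 to 0.0790 over 18 alternatives). Rab3b (presort 5.54, 5.69 and 5.78, sorted 5.70, 5.67 and 5.65) and Rab3c (presort 4.89, 4.68 and 4.87, sorted 4.80, 4.63 and 4.81) overlapped between the groups and were dim on all arrays. Rab27b, the platelet granule form, was at 5.40, 5.98 and 5.62 before the sort and at 5.19, 5.37 and 5.36 after it. Its sorted values were all lower, but the change of -0.36 ± 0.16 (SE) missed the threshold (adjusted p = 0.140); without _x_at and _s_at probe sets it stood at -0.94 and passed (0.0224), one of 2 alternatives of 17 that did. Rab26, of granule maturation, did not pass at 0.22. Every marker list except that of B cells held falls on the same arrays as Rab3d, Rab27a and Rab44, as given above. A link was not tested.

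Since Rab3a and Rab3d moved in opposite directions and Rab27a, Rab32 and Rab2b are among the members with the largest changes, the 250 bases before their start sites are shown, from RefSeq on build GRCm38.p6. They lie at chr8:70754453-70754702 (plus strand, Rab3a, the first of its 2 starts), chr9:21918184-21918433 (minus, Rab3d), chr9:73044560-73044809 (plus, Rab27a, the first of its 2 starts), chr10:10558208-10558457 (minus, Rab32) and chr14:52279396-52279645 (minus, Rab2b). Each runs 5' to 3' along the gene, and capitals mark GC boxes (GGGCGG, or CCGCCC on the other strand), to which Sp1-type factors bind.
Rab3a: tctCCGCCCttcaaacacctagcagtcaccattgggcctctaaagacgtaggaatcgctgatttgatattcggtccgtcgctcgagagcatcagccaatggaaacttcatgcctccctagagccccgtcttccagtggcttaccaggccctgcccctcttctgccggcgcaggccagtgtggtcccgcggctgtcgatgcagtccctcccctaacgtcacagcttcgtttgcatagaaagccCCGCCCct
Rab3d: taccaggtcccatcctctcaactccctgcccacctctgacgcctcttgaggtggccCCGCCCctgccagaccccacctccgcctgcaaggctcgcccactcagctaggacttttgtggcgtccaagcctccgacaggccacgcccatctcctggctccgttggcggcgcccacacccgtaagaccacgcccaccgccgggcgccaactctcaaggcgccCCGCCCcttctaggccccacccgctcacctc
Rab27a: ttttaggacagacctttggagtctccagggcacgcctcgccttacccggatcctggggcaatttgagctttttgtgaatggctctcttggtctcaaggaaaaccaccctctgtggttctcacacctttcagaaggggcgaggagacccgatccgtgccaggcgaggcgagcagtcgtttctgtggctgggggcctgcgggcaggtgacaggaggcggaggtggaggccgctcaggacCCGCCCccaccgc
Rab32: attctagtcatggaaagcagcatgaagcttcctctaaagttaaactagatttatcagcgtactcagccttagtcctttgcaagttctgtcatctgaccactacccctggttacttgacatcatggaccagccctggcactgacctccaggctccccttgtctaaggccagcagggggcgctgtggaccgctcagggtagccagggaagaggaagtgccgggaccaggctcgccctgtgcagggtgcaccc
Rab2b: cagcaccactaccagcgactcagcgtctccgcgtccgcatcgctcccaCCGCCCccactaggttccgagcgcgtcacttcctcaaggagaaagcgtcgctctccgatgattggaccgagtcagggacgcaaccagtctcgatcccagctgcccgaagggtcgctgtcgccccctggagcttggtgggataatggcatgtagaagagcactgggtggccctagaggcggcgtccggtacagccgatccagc
The windows printed for Rab3a and Rab3d hold 2 GC boxes each, those for Rab27a and Rab2b 1 each, and that for Rab32 none; the second windows of Rab3a and Rab27a hold none. Of the 59 members 48 were matched to 60 such windows, and 40 of these (66.7%) hold a GC box, against 32.7% of all 32851 windows of this length; the median GC content was 60.2% and 52.4%. The E-box CACGTG, which TFEB and MITF recognise, was in 5 of 60 (8.33%, against 6.02%): Rab5a, Rab20, Rab21, Rab23 and the second start of Rab27a. The cAMP response element TGACGTCA was in 2 of 60 (3.33%, against 1.55%), those of Rab5a and Rab25. Both strands were searched, and none of the 3 motifs contains another. A match describes these letters only.

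All 4 Rabs placed with lysosome-related organelles and phagosomes fell (100%, against 18.1% of all genes). Each gene was placed in 1 group only, with earlier results of these data known, so this count rests on the placing. Rab32, which with Rab38 delivers enzymes to melanosomes and like organelles, was at 11.15, 11.17 and 11.32 in presort and at 8.58, 9.14 and 8.82 in sorted samples. The groups were 2 units apart or more at their nearest values, with a fall of 2.37 ± 0.16 (SE, 5.16-fold, limma adjusted p = 2.81e-05). Rab38 itself read 8.96, 9.12 and 9.06 against 7.02, 7.81 and 7.40, a fall of 1.64 ± 0.19 (adjusted p = 0.000391), and its other probe set gave -1.79. Rab20, found on maturing phagosomes, went from 6.02, 6.21 and 6.69 to 4.73, 4.36 and 4.35. Its fall was 1.82 ± 0.19 (SE, 3.54-fold, adjusted p = 0.000231), with sorted values so dim that its size is not settled. Rab34, of phagosomes and cilia, changed least of the 4, from 6.19, 6.48 and 6.74 to 5.52, 5.67 and 5.88. No overlap was seen, and the fall of 0.78 ± 0.17 was lost without pool 2 and with the actin gap as covariate (adjusted p 0.00193 to 0.0880 over 18 alternatives). Monocyte and macrophage markers fell on these arrays too (9 of 10), as did markers of every other list except B cells. A link was not tested.

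Of the 6 Rabs of early endosomes 3 fell and none rose (50% and 0%, against 18.1% and 14.5% of all genes). Rab31, which works between the Golgi and early endosomes, was at 11.16, 11.22 and 11.15 in presort and at 9.45, 9.63 and 9.41 in sorted samples. Each group was tight and they lay far apart, with a fall of 1.68 ± 0.11 (SE, 3.20-fold, adjusted p = 2.75e-05; -1.03 with the mean of its probe sets). The 3 forms of Rab5, the regulator of early endosome fusion, split. Rab5a read 11.46, 11.29 and 11.44 before the sort and 11.41, 11.27 and 11.35 after it, a change of -0.05 ± 0.11 (SE) with overlapping groups. Rab5c went from 9.12, 9.09 and 9.42 to 7.96, 8.34 and 8.13, without overlap, and fell by 1.07 ± 0.15 (adjusted p = 0.000854). Rab5b went from 7.0, 7.09 and 7.45 to 5.26, 6.39 and 6.56, the lowest of these on the sorted array with the highest 3' to 5' difference. Its fall of 1.11 ± 0.33 (SE, adjusted p = 0.0326) was 0.70 without sorted replicate 1 and 0.30 with the actin gap as covariate, both in size. Its other probe set stood at -0.15 and was not called. The call was lost under 8 of 18 alternatives (adjusted p 0.00632 to 0.214), among them leaving out any presort array, pool 2 or pool 3. Rab21 and Rab22a, of early endosome sorting, stood at 0.31 and 0.27 with no overlap and adjusted p of 0.0670 and 0.0942, and both passed with median centring (0.54 and 0.50). Another probe set of Rab21 passed over all probe sets at 0.79 (adjusted p = 0.0364). Other sets of Rab22a passed at 0.74 and 0.35 (0.0118 and 0.0344).

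The 4 late endosome Rabs gave 1 fall and 1 rise (25% each, against 18.1% and 14.5% of all genes). Rab7, which brings late endosomes to lysosomes, read 12.11, 11.98 and 12.30 in presort and 12.12, 12.06 and 12.23 in sorted samples. Its groups overlapped fully, with a change of 0.01 ± 0.12 (SE), although its dimmer probe set stood at -0.73 and passed over all probe sets (adjusted p = 0.0192). Rab7b, which acts from endosomes to the Golgi, went from 7.83, 7.78 and 7.84 to 6.51, 7.15 and 6.78 and fell by 1.004 ± 0.16 (2.01-fold, adjusted p = 0.00211; -0.56 with the mean of probe sets). Rab9, of receptor return to the Golgi, went up from 9.81, 10.05 and 10.04 to 10.58, 10.70 and 10.50. This rise of 0.63 ± 0.12 (SE, 1.54-fold, adjusted p = 0.00438) passed under all 18 alternatives. Rab9b, dim on every array (presort 4.22, 4.11 and 4.03, sorted 4.07, 4.16 and 3.99), did not pass at -0.04.

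In the recycling group of 9 genes only Rab4a passed, as a fall (11.1%, against 18.1% of all genes). Rab4a, of fast recycling from early endosomes, was at 6.72, 6.73 and 6.44 in presort and at 4.63, 4.62 and 4.95 in sorted samples, with no overlap. It fell by 1.89 ± 0.14 (SE, 3.72-fold, adjusted p = 4.28e-05; -1.25 at its probe set without the _s_at suffix). The sorted values are dim, so the size of this fall is not settled. Rab4b went from 9.67, 9.71 and 9.86 to 9.62, 10.31 and 10.08, with a change of 0.26 ± 0.18 (SE) that did not pass (adjusted p = 0.350). It passed under 3 of 18 alternatives (0.0222 to 0.840 over all 18). Rab11a, of slow recycling, read 11.60, 11.35 and 11.37 and then 11.42, 10.82 and 10.93. Within pools its values fell each time, and the change of -0.39 missed the threshold (adjusted p = 0.138) but passed with the replicate number as a block (0.0490; 0.00907 to 0.508 over 18 alternatives). Rab11b went from 10.75, 10.82 and 10.81 to 10.37, 10.59 and 10.67, a change of -0.25 (adjusted p = 0.152), and another of its probe sets stood at 0.53 (0.0554 over all probe sets). The remaining members Rab14, Rab15, Rab17, Rab25 and Rab35 lay between -0.39 (Rab35) and 0.25 (Rab14), with adjusted p of 0.0667 or more. Of 18 alternatives Rab14 passed under 2 (smallest adjusted p 0.0179) and Rab35 under 1 (0.0175). A dimmer probe set of Rab14 stood at 0.97 and passed over all probe sets (adjusted p = 0.0117).

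The ER and Golgi Rabs, the largest group with 15 genes, held 3 of the 7 rises. Of this group 20% rose and 6.67% fell, against 14.5% and 18.1% of all genes. Rab2b, a Golgi Rab, went from 7.62, 7.36 and 7.50 in presort to 8.99, 9.34 and 8.81 in sorted samples. No value overlapped, and the rise was 1.55 ± 0.16 (SE, 2.94-fold, limma adjusted p = 0.000179; 1.02 with the mean of its 5 probe sets). Rab19 read 7.34, 7.35 and 7.02 and then 8.32, 8.68 and 8.57, a rise of 1.29 ± 0.15 (2.45-fold, adjusted p = 0.000315). Rab33b, a Golgi Rab that binds the autophagy protein Atg16l1, went from 10.46, 10.03 and 10.13 to 11.60, 11.08 and 11.25. Its rise of 1.11 ± 0.17 (SE, 2.15-fold, adjusted p = 0.00167) was nearly the same in each pool. These 3 passed under every alternative run. B cell markers rose on the same arrays (8 of 9), and a link was not tested.

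Rab6a, of traffic within the Golgi, was the 1 member of this group that fell, from 10.91, 10.94 and 10.89 to 10.48, 10.28 and 10.58. The groups did not overlap and the fall was 0.47 ± 0.12 (SE, adjusted p = 0.0151), but it was lost under 6 of 18 alternatives (0.00471 to 0.136), among them without presort replicates 2 or 3, without pools 2 or 3 and with median centring (-0.24). Rab6b (presort 7.06, 7.50 and 7.47, sorted 7.23, 7.92 and 7.46) overlapped. Rab1a, of ER to Golgi transport, read 12.84, 12.84 and 12.73 and then 12.80, 12.56 and 12.75, and Rab2a read 11.86, 11.92 and 11.93 and then 11.54, 11.76 and 11.76; neither passed, at -0.10 and -0.22. Rab1b was lower on sorted replicate 1 (9.18) than on the other sorted arrays (9.96 and 10.28), against 10.21, 10.38 and 10.33 before the sort. Rab33a (presort 4.45, 4.54 and 4.70, sorted 4.66, 4.69 and 4.56), Rab39 (5.64, 5.62 and 5.50, then 5.87, 5.70 and 6.56) and Rab39b (5.43, 5.19 and 4.98, then 5.16, 5.31 and 5.35) were dim and did not pass. Rab39 passed under 2 of 18 alternatives (adjusted p 0.0280 to 0.613 over all 18). Rab18, Rab29, Rab30 and Rab43 ran from -0.27 to 0.49, with adjusted p of 0.0807 or more. Rab30 was the closest (0.0108 to 0.415 over 18 alternatives), and its 2 probe sets disagreed, at 0.49 and -1.01. The adjusted p of Rab18 ran from 0.0465 to 0.945 over 18 alternatives. A dimmer probe set of Rab18 stood at -0.96 and passed over all probe sets (adjusted p = 0.0398).

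Among the 7 Rabs of exocytosis and the cilium 2 fell and 1 rose (28.6% and 14.3%, against 18.1% and 14.5% of all genes). Rab8b, of transport to the plasma membrane, was at 12.70, 12.66 and 12.75 in presort and at 10.71, 11.23 and 11.35 in sorted samples. It was bright in both groups and without overlap, and it fell by 1.61 ± 0.17 (SE, 3.05-fold, adjusted p = 0.000230; -0.80 with the mean of its probe sets). Rab8a, from 10.48, 10.75 and 10.69 to 10.01, 10.39 and 10.80, overlapped and did not pass at -0.24. Rab12 went from 7.72, 7.60 and 7.62 to 8.39, 8.64 and 8.04, a rise of 0.71 ± 0.16 (adjusted p = 0.0108). Its second probe set stood at 0.07, and the call was lost without pool 2 and with the actin gap as covariate (adjusted p 0.00334 to 0.0867 over 18 alternatives). Rab28 fell by 0.66 ± 0.16 (SE), a call lost under 6 of 18 alternatives (0.00278 to 0.159), among them without presort replicate 3, sorted replicate 3, pool 1 or pool 3. Rab23, which curbs Hedgehog signalling, stood at -0.83 ± 0.33 (adjusted p = 0.0922) and Rab13, of tight junctions, at -0.44 (0.114). Both passed with the replicate block (0.00153 and 0.0309), and Rab23 was lower in sorted samples in all 3 pools while its groups overlapped. Another probe set of Rab23 stood at -0.82 and passed over all probe sets (adjusted p = 0.0316). Rab10, of transport to the plasma membrane, did not pass at 0.16, while another of its probe sets stood at -0.61 and passed over all probe sets (adjusted p = 0.0350).

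Of the other 5 members, Rab40c, whose protein carries a SOCS box, rose from 9.59, 9.58 and 9.57 to 9.95, 9.88 and 9.93. The values were tight, but the rise of 0.34 ± 0.10 (SE, adjusted p = 0.0290) was lost under 11 of 18 alternatives (0.00415 to 0.637), among them without any 1 presort array, sorted replicates 1 or 3, or any 1 pool. Its second probe set stood at -0.20. Rab40b (presort 5.18, 5.18 and 5.25, sorted 5.25, 5.28 and 5.24), Rab24, Rab36 and Rab42 did not pass, with changes from -0.40 to 0.05. Probe sets of a gene also differed in sign for Rab7b (1 set at 0.09, not called) and Rab8b (1 set at 0.00, not called), and, with no set called, for Rab1a, Rab2a, Rab3c, Rab6b, Rab17, Rab24, Rab36 and Rab40b.

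Whether paralogues of 1 number changed alike was tested on the within-array difference of each pair, which any scaling of a whole array leaves as it is. The fit held all 824 pairs of the table whose symbols share letters and number and differ only by an optional final letter a to d. Of these pairs 339 (41.1%) passed (limma, adjusted over these pairs). Of the 21 Rab pairs 14 passed (66.7%), in 9 of the 14 numbers. The pairs of a number share genes, so they are not independent: Rab3 alone gives 6 and Rab5 gives 3. For every passing Rab pair the two-sided exact permutation test gave 0.1, the smallest p that 3 against 3 arrays allow.

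**Figure D2:**
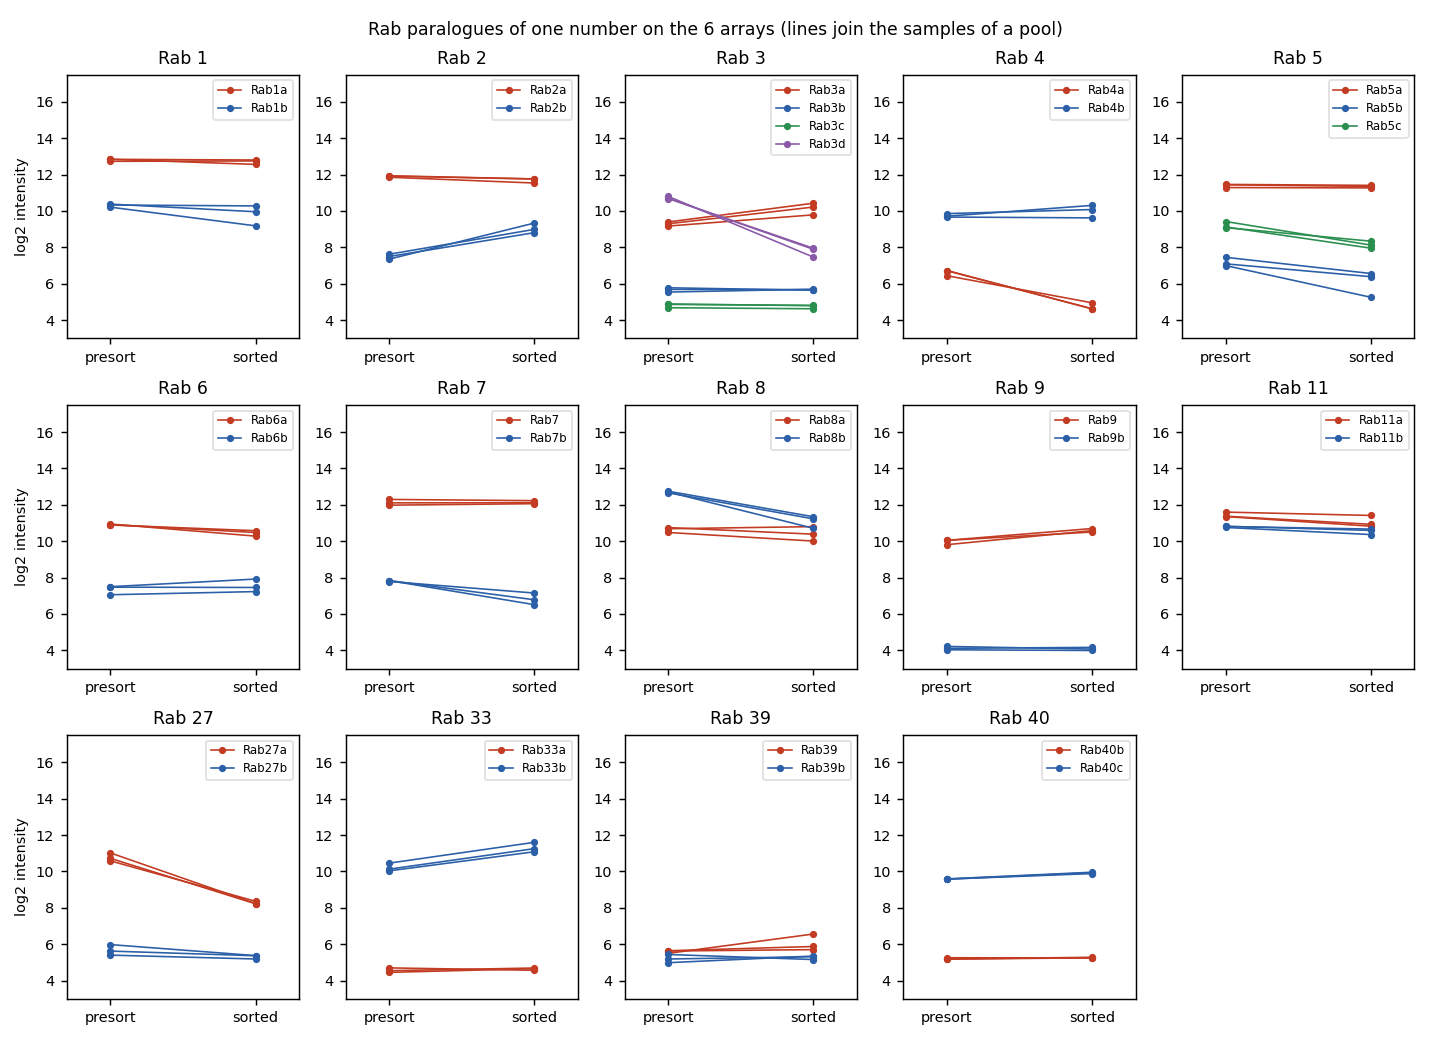
Log2 intensity (y axis) of the Rab paralogues of 14 numbers on the 3 presort and 3 sorted arrays, with lines joining the samples of a pool and 1 colour per gene. Levels of different genes come from different probes and cannot be set against each other; the slopes can, and Rab3a rises from 9.29 to 10.14 on average while Rab3d falls from 10.73 to 7.77.

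The pair that moved furthest apart was Rab3a and Rab3d, by 3.81 ± 0.17 (SE, log2, adjusted p = 3.50e-06), with 3.95, 3.76 and 3.72 in pools 1, 2 and 3. It was also the 1 pair whose members were called in opposite directions. Rab3d stood apart from Rab3b by 2.96 and from Rab3c by 2.89 in the same sense, and Rab3a rose against Rab3b by 0.85 ± 0.21 and against Rab3c by 0.92 ± 0.24. Rab4a fell against Rab4b by 2.15 ± 0.23 (SE, adjusted p = 0.000137), with -2.04, -2.70 and -1.71 in the pools. Since Rab4a was dim in sorted samples, the size of this difference is not settled. Rab27a fell against Rab27b by 2.14 ± 0.23 (0.000137; -2.28, -1.62 and -2.52). Pairs outside the granule and endosome groups were separated too. Rab2a fell against Rab2b by 1.77 ± 0.20 (adjusted p = 0.000166), and Rab8a was above Rab8b in its change by 1.37 ± 0.17 (0.000347).

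The other 5 passing pairs were separated by about 1 unit or less. Rab5a exceeded Rab5b by 1.06 ± 0.35 (SE, adjusted p = 0.0402) and Rab5c by 1.02 ± 0.19 (0.00311). Rab7 exceeded Rab7b by 1.01 ± 0.21 (0.00532), and Rab9 exceeded Rab9b by 0.67 ± 0.17 (0.0137). Rab33a stood below Rab33b by -1.03 ± 0.22 (0.00608). Rab9b and Rab33a were dim on all arrays, so these differences follow the changes of Rab9 (0.63) and Rab33b (1.11) and do not show what the dim partner did. The same holds for Rab3c and Rab27b. Without the dimmest genes, which leaves out these 4 and others, 9 Rab pairs passed. Pairs with a removed member could not be run there, so this count is out of fewer than 21 pairs. The calls of these 5 pairs also varied with the settings. Rab5a against Rab5b was lost under 8 of 18 alternatives (adjusted p 0.00384 to 0.532), among them without any 1 presort array or pools 2 or 3. Rab7 against Rab7b was lost with the mean of probe sets (0.20) and with the actin gap as covariate (0.78), over a range of 0.00179 to 0.365. Without pool 3 only 8 Rab pairs passed, and the calls of Rab3a against Rab3b, Rab3a against Rab3c, Rab33a against Rab33b, Rab5a against Rab5c and Rab9 against Rab9b were among those lost; Rab9 against Rab9b was also lost without presort replicate 1, pool 1 or pool 2, and Rab3a against Rab3b without pool 2.

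For 7 pairs no difference was shown, which does not mean that they changed alike. The 95% interval of the difference was -0.27 to 1.07 for Rab1a and Rab1b, -0.70 to 0.43 for Rab11a and Rab11b, -0.14 to 0.91 for Rab39 and Rab39b, and -0.64 to 0.06 for Rab40b and Rab40c. For Rab5b and Rab5c, which both fell, it was -0.67 to 0.59, and for Rab3b and Rab3c -0.32 to 0.46. Rab6a and Rab6b came closest, at -0.66 with an interval of -1.26 to -0.07 before adjustment (adjusted p = 0.0728; 0.0246 with the replicate block; 0.0231 to 0.229 over 18 alternatives).

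**Figure D3:**
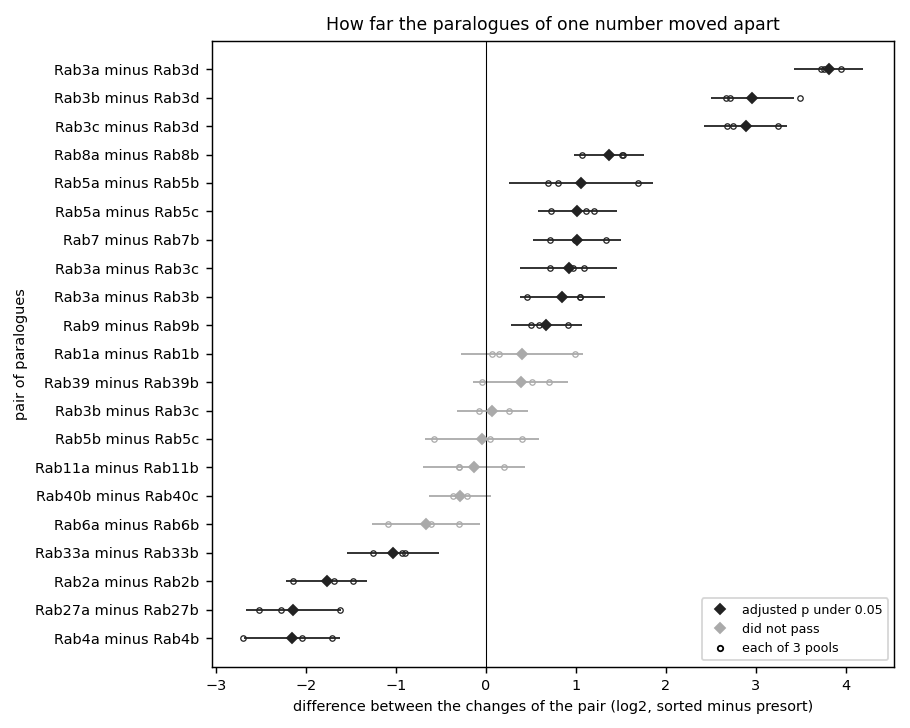
Difference between the changes of 2 paralogues of one number (x axis, log2, sorted minus presort) for all 21 Rab pairs, with 95% intervals from limma and the 3 pools as open circles. The 14 pairs in black passed the test, and Rab3a minus Rab3d lies furthest to the right, at 3.81.

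The genes that load, switch and read Rab proteins changed in both directions. Of 148 measured genes in 4 lists 42 rose and 39 fell, 28.4% and 26.4% against 14.5% and 18.1% of all genes, with a median of 0.00. Differences between the 4 lists were not tested. In the prenylation and GDI list 2 of 8 rose and none fell: Chml, a Rab escort protein that presents new Rabs for prenylation, rose by 0.86 ± 0.11 (SE, limma adjusted p = 0.000591). Gdi2, a GDI, rose by 0.33 ± 0.10 (0.0381), which was lost under 13 of 18 alternatives (0.00390 to 0.540), the replicate block (0.0558) among them and leaving out any 1 array except sorted replicate 1, or any 1 pool. Without pool 3 the rises over the 4 lists came to 20, and without pool 2 to 24.

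Of 44 measured GEF genes 14 rose and 12 fell (31.8% and 27.3%, against 14.5% and 18.1% of all genes). Dennd5b, a DENN domain protein, went from 8.08, 7.85 and 7.19 in presort to 10.66, 10.99 and 10.91 in sorted samples, a rise of 3.15 ± 0.23 (SE, adjusted p = 3.63e-05). The 2 related exchange factors of Rab8 went opposite ways. Rab3ip (Rabin8) rose from 7.75, 7.22 and 7.36 to 9.77, 9.01 and 9.37, by 1.94 ± 0.22. Rab3il1 (GRAB) fell from 10.79, 10.48 and 10.75 to 7.34, 7.63 and 8.05, by 3.00 ± 0.19. Both were without overlap between the groups. Sbf2, a myotubularin-related DENN protein, rose by 1.41, while Rin2, an exchange factor of Rab5, fell by 2.87 ± 0.17 and Dennd2c by 2.24 ± 0.20. Sizes varied over the 18 alternatives, from 0.48 to 1.64 for Sbf2, -3.19 to -1.36 for Rab3il1 and 1.91 to 3.43 for Dennd5b. Each of these calls held throughout.

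Among 38 GAP genes, most of which carry a TBC domain, 5 rose and 14 fell (13.2% and 36.8%, against 14.5% and 18.1% of all genes). Tbc1d24 was at 9.03, 9.23 and 9.35 in presort and at 6.09, 6.52 and 6.02 in sorted samples, a change of -2.99 ± 0.16 (SE, adjusted p = 1.93e-05). Tbc1d8 fell by 2.92 and Tbc1d2b by 2.27. The risers were led by Rabgap1l, from 10.50, 10.12 and 9.86 to 12.28, 11.71 and 11.99 (1.84 ± 0.20), and Tbc1d1, a target of Akt in glucose transport, at 1.74. Over the 18 alternatives Rabgap1l ran from 1.05 to 2.06 and Tbc1d1 from 0.78 to 1.97. Tbc1d17 rose by 1.01 ± 0.26 (adjusted p = 0.0172), a call lost under 5 of 18 alternatives (0.00175 to 0.124), among them without presort replicates 2 or 3 or pools 2 or 3; it was 0.42 with the actin gap as covariate.

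Of 58 effector genes 21 rose and 13 fell (36.2% and 22.4%, against 14.5% and 18.1% of all genes). Rabep2, a rabaptin that binds active Rab5, rose from 10.28, 9.86 and 9.86 to 12.20, 11.99 and 11.57 (1.92 ± 0.19, adjusted p = 0.000168). Rubcn, a Rab7 effector that restrains autophagosome maturation, rose by 1.72 and the vesicle motor Myo5a by 1.18 (0.54 to 1.41 over 18 alternatives). The largest falls were those of Micall2, an effector of Rab8 and Rab13, from 7.68, 7.10 and 7.28 to 4.92, 4.54 and 4.55 (-2.68 ± 0.18), of Osbpl1a, a Rab7 effector, at -2.53, and of Rab11fip5, which binds Rab11, at -2.30. The sorted values of Micall2 are dim, so the size of its fall is not settled. Osbpl1a ran from -2.71 to -1.57 over the 18 alternatives. Of the partners of Rab27a, singled out after their values were seen, Sytl1 fell by 1.84 and Unc13d, which primes cytotoxic granules, by 0.94, Sytl2 rose by 0.79, and Sytl4, Mlph, Myrip and Exph5 lay between -0.16 and 0.00 and did not pass.

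**Figure D4:**
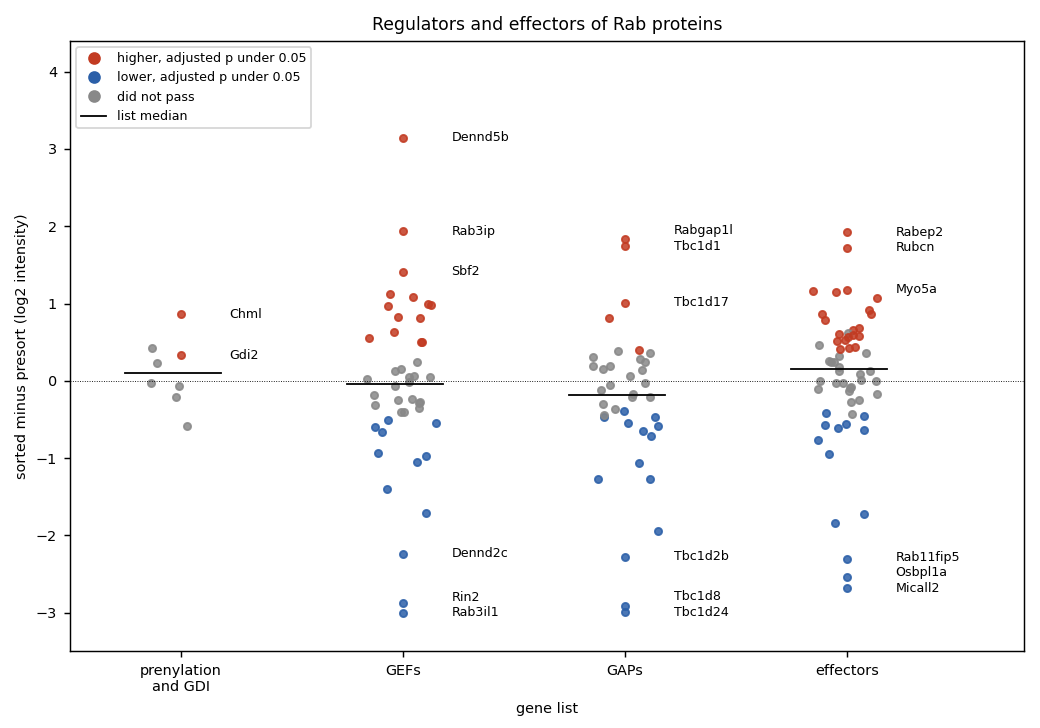
Change in sorted against presort samples (y axis, log2 intensity) of each measured gene in 4 lists of Rab regulators and effectors (8, 44, 38 and 58 genes); black bars are the list medians and the named genes are labelled. Dennd5b lies at the top (3.15) and Rab3il1 at the bottom (-3.00), and both are exchange factor genes.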

How the data were processed

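Whole marrow and GFP-sorted marrow cells were read on 6 Affymetrix mouse 3' arrays, 3 per group. The authors deposited linear-scale intensities; RMA is the tool that the submitters' processing notes name (version not given in the sources used here); all arrays share 1 distribution to within 0.181%, so a change in total RNA per cell leaves no trace. No pair of arrays shared more than 68 of 45101 values, so none is a copy of another.

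Log2 was taken without a pseudocount. Probe sets with 1 symbol in the platform annotation (34945) were used, and the symbols of all 59 members matched the reference gene table. No dim genes were removed. The test was limma's (version 3.58.1, R 4.3.3; lmFit, eBayes, two-sided, 4 residual degrees of freedom before moderation), adjusted over 18193 genes, 34945 probe sets or 824 paralogue pairs. Figures used matplotlib 3.10.9. The steps were tested on simulated data. Members, lists and tests were chosen with earlier results of these data known. All paralogues of a shared number are named with their arrays, as are the 6 largest called rises and falls among other members (only 2 rises existed), and up to 3 called genes each way per regulator list with 1 sign in all pools; of the markers, the 2 per list with the highest means.

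Per the labels a replicate number is a sort-day pool, which pairs the samples; their deviations from group means correlated at 0.39, 0.20 and -0.03 in pools 1, 2 and 3. The main test did not use this pairing. The block by number is an alternative, beside those of the closing section.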

Additional observations from a re-analysis of the deposited data

How the results depend on the processing

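Each result was recomputed under 18 alternatives: a replicate block, leaving out each array or pool, removal of the dimmest 33.3% of genes, a second quantile step, median centring, averaged probe sets, exclusion of those ending in _x_at or _s_at, limma's trend and robust options, array weights, and the actin gap as covariate. Of the 23 called Rab genes 15 passed under all of them, and of the 36 others 24 under none; 7 of the 14 called pairs passed in every alternative that could be run, since a few lack a gene. No called value changed sign. With the replicate block 7 Rab genes were higher and 19 lower, 15 Rab pairs passed, and the calls it changed among named Rab genes, pairs and regulators are given above. Leaving out 1 array or pool gave 5 to 8 higher and 12 to 18 lower Rab genes, 8 to 15 Rab pairs and 231 to 341 pairs in all. It gave 20 to 40 higher and 26 to 38 lower regulators and effectors, and 1544 to 2608 higher and 2362 to 3256 lower genes. Median centring gave 13 higher and 14 lower Rab genes, 57 higher and 24 lower regulators and effectors, and 5162 higher and 2576 lower genes, so that most called genes were then higher; the shift of the median is the construction of this alternative. Without the dimmest genes 50 Rab genes were left and 9 Rab pairs passed, out of fewer than 21, since pairs with a removed gene could not be run. Of all pairs 239 passed there. Without detection calls, dim genes such as Rab9b and Rab33a have no settled limit of detection.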

Other observations

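Small GTPases close to the Rab family but outside its naming pattern were picked after the data were seen. Ift22 (also named Rabl5), a subunit of the intraflagellar transport complex of cilia, was at 7.48, 7.68 and 7.38 in presort and at 8.50, 8.79 and 8.70 in sorted samples, without overlap. It rose by 1.15 ± 0.13 (SE, log2, limma adjusted p = 0.000315) and passed under all 18 alternatives. Its partner in that complex, Ift27 (Rabl4), stood at -0.47 ± 0.21 and did not pass (adjusted p = 0.149). Ift27 passed under 4 of 18 alternatives, with -0.94 to -0.23 and adjusted p of 0.00377 to 0.566 over all 18. Rabl2, Rabl3 and Rabl6 stood at -0.03, -0.13 and -0.11, and the large Rab-like gene Rasef, dim on every array, at 0.18; none of these passed.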
